A study of Arabidopsis thaliana with 21 samples.

Results

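The 77 probe sets described here were strongly lowered by cold in wild-type Arabidopsis thaliana and lowered less in a camta1/2/3 triple mutant. They were picked from 22746 probe sets by group means of log2 levels. The wild type (WT) had to be lower by at least 1.5 at 4 °C than at 22 °C, and the response of camta1/2/3 had to lie at least 0.8 above that of WT. The mutant had to be within 1 of WT at 22 °C, in either direction, and the WT level at 22 °C had to be at least 5. Of 447 probe sets with such a WT fall and level, 253 lay in the warm range and 77 of these met the whole rule. The other 176 serve below as the closest comparison. Because the rule used the WT and camta1/2/3 arrays at both temperatures, their values describe what was chosen, and the counts of calls given for those contrasts support nothing about the members.

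Aerial parts of plants in the Col-0 background were collected, all grown in soil at 22 °C for 3 weeks with a 12 h photoperiod. At 22 °C there were 5 genotypes: WT, camta1/2/3, mutant in CAMTA1, CAMTA2 and CAMTA3, and the pairs camta1/2, camta2/3 and camta1/3. WT and camta1/2/3 were also sampled after 24 h at 4 °C, and no cold samples of the double mutants were analysed here. The labels used here name no mutant alleles. Each of the 7 groups had 3 biological replicates on 1 array each, 21 arrays in all, and nothing says how many plants went into a replicate, so the tests measure only the spread between these samples.

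CAMTA proteins are calmodulin-binding transcription factors, and they are best known in this plant for keeping immunity genes low in the warm and for taking part in the early induction of cold genes such as the CBF genes. Plants moved to the cold also lower many transcripts, among them genes of growth, of the cell wall and of metabolism, while cold-protective genes are raised. Lower transcript levels in whole shoots can come from fewer cells of a type or from less RNA per cell, and these arrays cannot tell them apart.

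Levels are log2 values, so a difference of 1 is a doubling. Array medians ran from 4.86 to 5.01, and replicates of a group correlated at 0.9841 or more over all probe sets. None of the 3 mutated CAMTA genes had a probe set named here, so the genotypes were not checked on the arrays. The leaf markers RCA, LHCB4.1, LHCB4.2 and PRK, 4 of 19 listed, had group means from 10.01 to 13.66, and 4 of 16 root markers were measured. The leaf marker LHCB4.2 stood at 12.45 in warm and 10.29 in cold WT and at 11.96 and 10.38 in camta1/2/3. The other leaf markers were lower by mean in camta1/2/3 than in WT at 4 °C. RCA stood at 12.73 against 12.86, LHCB4.1 at 11.68 against 12.18 and PRK at 10.01 against 10.21. The root marker PYK10 differed by mean with temperature and genotype, at 7.97 in WT and 8.83 in camta1/2/3 at 22 °C and at 6.40 and 7.14 at 4 °C, and the part of these in the results was not tested. The other 3 root markers were at 2.17 to 4.49 and did not share a direction. AT1G12080 was lower by mean in camta1/2/3 than in WT, at 4.05 against 4.45 at 22 °C and 3.95 against 4.08 at 4 °C. AT4G30170 was higher, at 2.65 against 2.28 and at 2.69 against 2.31. AT5G17820 stood at 2.17 to 2.20 in these groups. Of the flower markers 0 of 9 were measured, and of the pollen markers 2 of 4, at 2.43 to 5.07. A pair of actin control probe sets, whose 3′ minus 5′ difference grows with RNA damage or short copies, stood at 2.23 ± 0.21 (SD, n = 3) in WT and 2.90 ± 0.13 in camta1/2/3 at 22 °C. At 4 °C it stood at 2.00 ± 0.62 and 3.11 ± 1.0. The cold arrays overlapped, with 1.57, 2.71 and 1.71 in WT and 2.67, 4.25 and 2.41 in camta1/2/3. This second pair was added after the data were seen. The first pair, planned beforehand, stood at 7.21 ± 0.31 and 7.51 ± 0.22 at 22 °C and at 7.25 ± 0.17 and 7.31 ± 0.16 at 4 °C. Both pairs were higher by mean in camta1/2/3, without overlap only for the second pair at 22 °C. Their part in the choice of the members was not tested.

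Only 36 of the 77 probe sets were paired with 1 gene each, and these are 36 different genes. Another was paired with several genes, and 40 had no gene named here and enter the counts alone. Among 19 functional classes searched by gene name, only that of cell wall genes held a member, CSLA03, 1 of its 37 probe sets. Most of the other genes carry no more than a locus number in the tables used here, so the families given below are general background, and the grouping by family was made after the values were seen.

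Across the 77 members the WT response ran from −6.56 to −1.51 with a median of −1.99. The camta1/2/3 response ran from −5.65 to 0.10 with a median of −0.94. In the median member the mutant thus kept 46.8% of the log2 fall of WT, and the difference of the responses ran from 0.80 to 2.02 with a median of 1.09. Of the 176 other cold-repressed probe sets the median responses were −1.83 and −1.60, and the mutant kept 83.3% of the fall in the median one.

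The mutant kept under 25% of the WT fall in 8 members, 25% to 50% in 33, 50% to 75% in 35 and over 75% in 1. In 2 members its mean was not lowered at all. Most members were thus still lowered in camta1/2/3, only by less. By limma over all probe sets at an adjusted p under 0.05, 75 of 77 were called lower in WT, where 13.1% of all probe sets were. In camta1/2/3, 49 were called lower, against 12.3% of all. The interaction was called for 22 members, all of them positive, against 1.12% of all probe sets. These counts come from the contrasts and arrays that chose the members, and nothing is read from them. The interaction count was 7 when only the 4 groups entered the fit, 14 without cold WT replicate 3 and 32 without cold WT replicate 2.

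**Figure D1:**
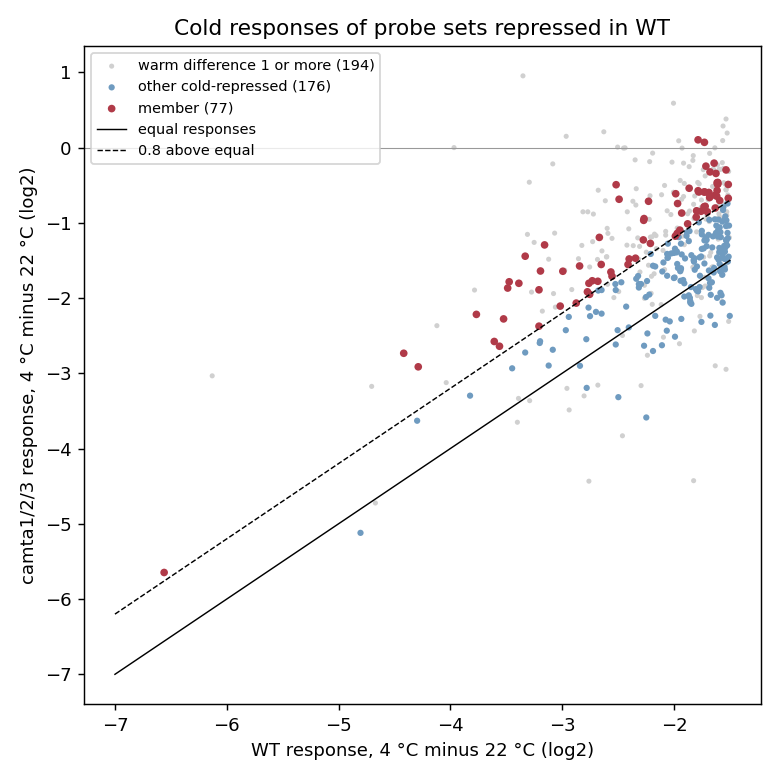
Each point is 1 of the 447 probe sets lowered by at least 1.5 in WT with a WT level of at least 5 at 22 °C, with the log2 response of WT on the x axis and that of camta1/2/3 on the y axis. The 77 members (red) lie on or above the dashed line, 0.8 above equal responses, by choice, the 176 others (blue) below it, and the grey points differ by 1 or more at 22 °C; all but 2 members stay below 0 on the y axis.

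A smaller fall can come about in 2 ways, by a higher level of the mutant at 4 °C or by a lower level at 22 °C, and the members were divided by which difference from WT was the larger. In 49 members the larger part lay at 4 °C. Their median differences of camta1/2/3 from WT were 0.03 at 22 °C and 1.13 at 4 °C. In the other 28 the larger part lay at 22 °C, with medians of −0.79 at 22 °C and 0.29 at 4 °C. In these 28 the mutant began lower in the warm, and in the median one it ended near the cold level of WT. Their differences at 4 °C ran from −0.13 to 0.85. By mean 25 of the 28 also ended above WT, and 4 were called higher by limma. The name of weakened repression thus describes the 49 more closely than the 28. This division used the same 4 groups as the rule and is a description.

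Over all members, camta1/2/3 was above WT at 4 °C by mean in 74 of 77. The shares were 44.7% of all probe sets and 53.4% of the other cold-repressed ones. In 46 members its 3 cold arrays all exceeded the 3 of WT, and the share of all probe sets that did so was not computed. Nothing is read from either count. By limma 48 were called higher at 4 °C, where 10.5% of all probe sets were, and 29 were not called. The choice of members favoured higher levels of the mutant at 4 °C. At 22 °C, 21 members were called lower in camta1/2/3 and 3 higher, where 12.4% and 11.1% of all probe sets were. Of the named genes 25 had the larger part at 4 °C and 11 at 22 °C.

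**Figure D2:**
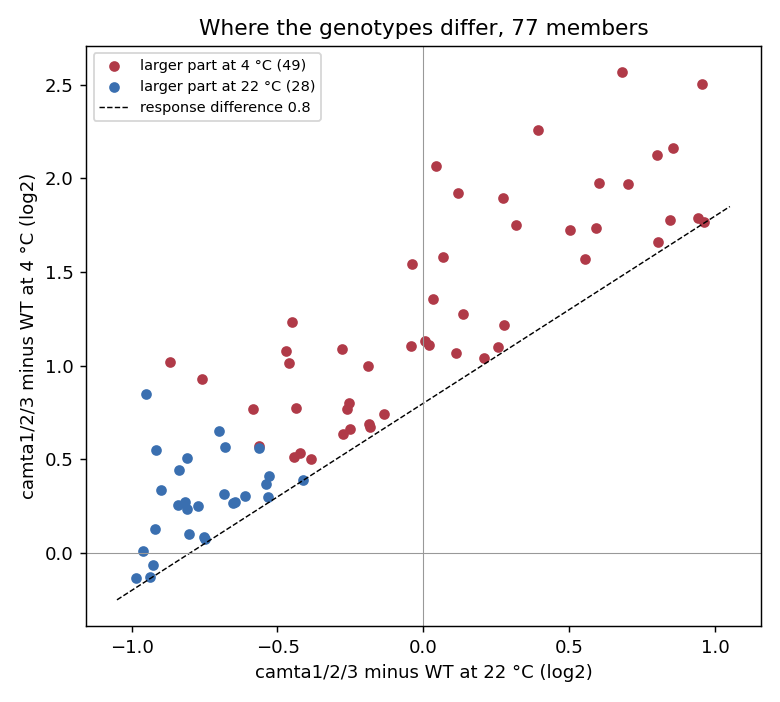
Each point is 1 of the 77 members, with the log2 difference of camta1/2/3 from WT at 22 °C on the x axis and at 4 °C on the y axis. The 49 members with the larger part at 4 °C (red) spread to both sides of 0 on the x axis, while the 28 with the larger part at 22 °C (blue) are all lower in the mutant in the warm.

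Cell wall genes were found on both sides of this division. AT5G63180, of the pectin lyase-like family, had levels of 8.41, 8.23 and 8.38 in WT at 22 °C and of 6.14, 7.07 and 6.46 at 4 °C. In camta1/2/3 it read 7.69, 7.14 and 7.59 at 22 °C and 7.55, 7.55 and 7.63 at 4 °C. The mutant therefore started below every warm WT array and ended above every cold one, with no fall between (responses −1.78 and 0.10, difference 1.89 ± 0.26, SE). Its warm level in the double mutants was 8.57 ± 0.12 in camta1/2, 8.62 ± 0.18 in camta1/3 and 8.21 ± 0.04 in camta2/3 (SD, n = 3 each), all above that of the triple mutant.

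CSLA03, a cellulose synthase-like gene of the family that makes mannan backbones, read 6.58, 6.14 and 6.80 in warm WT and 2.82, 3.36 and 3.72 in cold WT. In camta1/2/3 it read 5.81, 5.62 and 5.66 at 22 °C and 4.05, 3.57 and 3.80 at 4 °C. All warm mutant arrays lay below all warm WT arrays, and the cold arrays overlapped. The WT cold mean, 3.30 ± 0.45 (SD, n = 3), is near the low end of the scale, where a fall such as the −3.21 measured can be understated.

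A pair of pectate lyase family genes, which act on pectin, showed the smaller warm level too. AT1G67750 stood at 7.17 ± 0.31 in WT and 6.61 ± 0.07 in camta1/2/3 at 22 °C, and at 5.45 ± 0.29 and 6.02 ± 0.36 at 4 °C. AT3G53190 stood at 8.01 ± 0.39 and 7.07 ± 0.44 at 22 °C and at 6.02 ± 0.40 and 5.89 ± 0.18 at 4 °C (SD, n = 3 each). AT3G53190 was thus no higher in the cold mutant than in cold WT, and its smaller response of −1.18 against −1.99 came from the warm level.

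AT5G14120, of the major facilitator family of membrane transporters, read 10.56, 10.35 and 10.23 in warm WT. Cold WT read 6.69, 7.22 and 6.81, an 11.1-fold lower mean. In camta1/2/3 the arrays read 9.83, 9.51 and 9.52 at 22 °C and 7.84, 8.35 and 7.32 at 4 °C, a 3.44-fold lower mean. The genotypes did not overlap at either temperature, the mutant being lower in the warm and higher in the cold.

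AT3G23550, a gene of the MATE family of efflux carriers, was one of the least regular members. WT read 5.03, 4.41 and 5.98 at 22 °C and 3.55, 3.53 and 3.24 at 4 °C, and camta1/2/3 read 6.37, 5.83 and 6.04 and then 4.69, 7.22 and 3.77. Replicate 2 of the cold mutant alone was above all its warm arrays, and the response difference of 0.85 had an SE of 0.85. Without that 1 array the difference was −0.15, so the place of this gene among the members rests on it. AT2G36950, a gene with a heavy-metal-associated domain, was more even. It stood at 6.84, 7.14 and 7.42 in warm WT and at 4.94, 5.32 and 4.46 in cold WT, against 6.90, 7.59 and 7.11 and 6.38, 6.84 and 6.24 in camta1/2/3. Its warm arrays overlapped between the genotypes, and every cold mutant array exceeded every cold WT array.

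Among metabolic genes, AT4G33150 encodes LKR/SDH, the bifunctional enzyme that opens lysine breakdown. It read 7.67, 6.40 and 6.34 in warm WT and 4.81, 5.20 and 4.81 in cold WT, and 7.79, 7.43 and 7.59 and then 7.21, 7.27 and 6.71 in camta1/2/3. The cold mutant stood 4.36-fold above cold WT. The WT fall rested on a wide warm spread, and so did the warm levels of the double mutants, which ran from 5.38 to 7.39 in camta1/2, 5.68 to 8.20 in camta1/3 and 5.69 to 7.04 in camta2/3. The response difference of 1.32 accordingly had an SE of 0.86.

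AT1G09500, of a family of NAD(P)-binding dehydrogenases, had an even wider spread, with 6.64, 4.90 and 3.97 in warm WT and 7.01, 4.60 and 4.00 in camta1/3. It was 1 of the 2 members whose fall in WT was not called, the other being AT3G23550. In both WT and camta1/3 the first replicate stood far above the other two, and its response difference of 1.09 ran from 0.36 to 1.69 as single arrays were left out. AT1G15410, of the aspartate-glutamate racemase family, was steadier and belonged to the members lower in the warm mutant, at 5.57, 5.65 and 6.32 in warm WT against 5.16, 4.95 and 5.11 in warm camta1/2/3. In the cold it read 4.31, 4.48 and 4.21 in WT and 4.48, 4.48 and 4.79 in the mutant, which touch at 4.48.

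Lipid transfer and lipid-binding families were also seen among the named genes. AT1G62510, of the lipid transfer protein family, stood at 6.44, 6.37 and 7.17 in warm WT and at 5.59, 4.16 and 4.28 in cold WT. In camta1/2/3 it read 6.56, 6.33 and 6.25 at 22 °C and 6.14, 5.74 and 5.42 at 4 °C, so 1 cold mutant array lay within the range of cold WT. AT3G23080, with a START lipid-binding domain, read 8.77, 8.40 and 8.42 in warm WT and 4.81, 5.44 and 4.77 in cold WT, against 7.80, 7.88 and 7.87 and 5.24, 5.81 and 5.67. Its mutant was below WT in every warm array and overlapped it in the cold. AT3G47560, of the alpha/beta hydrolase family and not counted with the lipid families, responded by −2.73 in WT and −1.77 in camta1/2/3.

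Regulatory and stress families were represented by single genes. AT1G76110, an HMG-box gene, read 6.96, 6.94 and 6.77 in warm WT and 5.31, 5.58 and 4.75 in cold WT, against 6.38, 6.27 and 6.27 and 6.42, 5.72 and 5.81 in camta1/2/3. The mutant kept 19.3% of the fall, from a warm level below that of every WT array. The RING finger gene AT4G17245 went the other way in the warm, with 6.84, 6.74 and 7.06 in WT and 7.89, 7.24 and 7.28 in camta1/2/3. At 4 °C it read 5.13, 5.53 and 5.16 in WT and 6.79, 7.49 and 6.74 in the mutant, which was thus higher at both temperatures with no overlap. The universal stress protein family gene AT3G11930 responded by −1.78 in WT and −0.59 in the mutant, and the protein kinase gene AT1G54820 by −2.65 and −1.55. For AT1G54820 the larger part lay at 22 °C, with means of 8.02 in WT and 7.18 in camta1/2/3, against 5.37 and 5.63 at 4 °C. The small heat shock protein-like gene AT4G21870 responded by −3.21 and −2.37. AT1G30260, for which no family is given here, responded by −1.59 and −0.70.

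The largest difference of the responses among all members was that of AT2G30930, for which no function is given here. It read 7.41, 6.96 and 7.28 in warm WT and 4.59, 4.97 and 4.54 in cold WT. In camta1/2/3 it read 7.70, 6.97 and 7.11 at 22 °C and 6.80, 6.64 and 6.86 at 4 °C. The warm arrays overlapped, the cold ones lay far apart (2.07 on the log2 scale, 4.19-fold), and the mutant kept 19.6% of the fall (response difference 2.02 ± 0.36, SE).

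AT3G19800 had like warm levels in both genotypes. WT read 9.43, 9.50 and 9.63 at 22 °C and 5.99, 6.61 and 5.80 at 4 °C, while camta1/2/3 read 9.49, 9.48 and 9.47 and then 7.62, 7.56 and 7.85. From the same warm level the mean was 10.5-fold lower in cold WT and 3.49-fold lower in the cold mutant. AT4G33666 had the deepest WT fall of the named genes, 13.6-fold, from 9.32, 9.24 and 9.21 to 5.38, 5.68 and 5.41, and the mutant went 4.65-fold lower, from 9.39, 8.26 and 8.71 to 6.34, 6.72 and 6.65. For AT3G06070 the mutant was higher at both temperatures, at 7.16 ± 0.38 against 6.46 ± 0.16 in the warm and 5.59 ± 0.34 against 3.62 ± 0.69 in the cold (SD, n = 3 each).

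AT1G51430 showed the opposite arrangement, with the difference in the warm. It read 6.33, 6.72 and 6.55 in warm WT and 5.60, 5.58 and 5.64 in warm camta1/2/3, with no overlap. In the cold the values overlapped, with 4.56, 4.83 and 4.58 in WT and 4.40, 4.56 and 4.82 in the mutant. Similar values were seen for AT5G13090, at 7.17 and 6.21 in the warm and 5.55 and 5.56 in the cold, and for AT3G59300, at 6.76 and 5.84 and then 4.49 and 4.62 (means of WT and camta1/2/3). AT1G63240 also started lower in the mutant, at 5.20 against 6.10, and kept 19.3% of the fall.

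**Figure D3:**
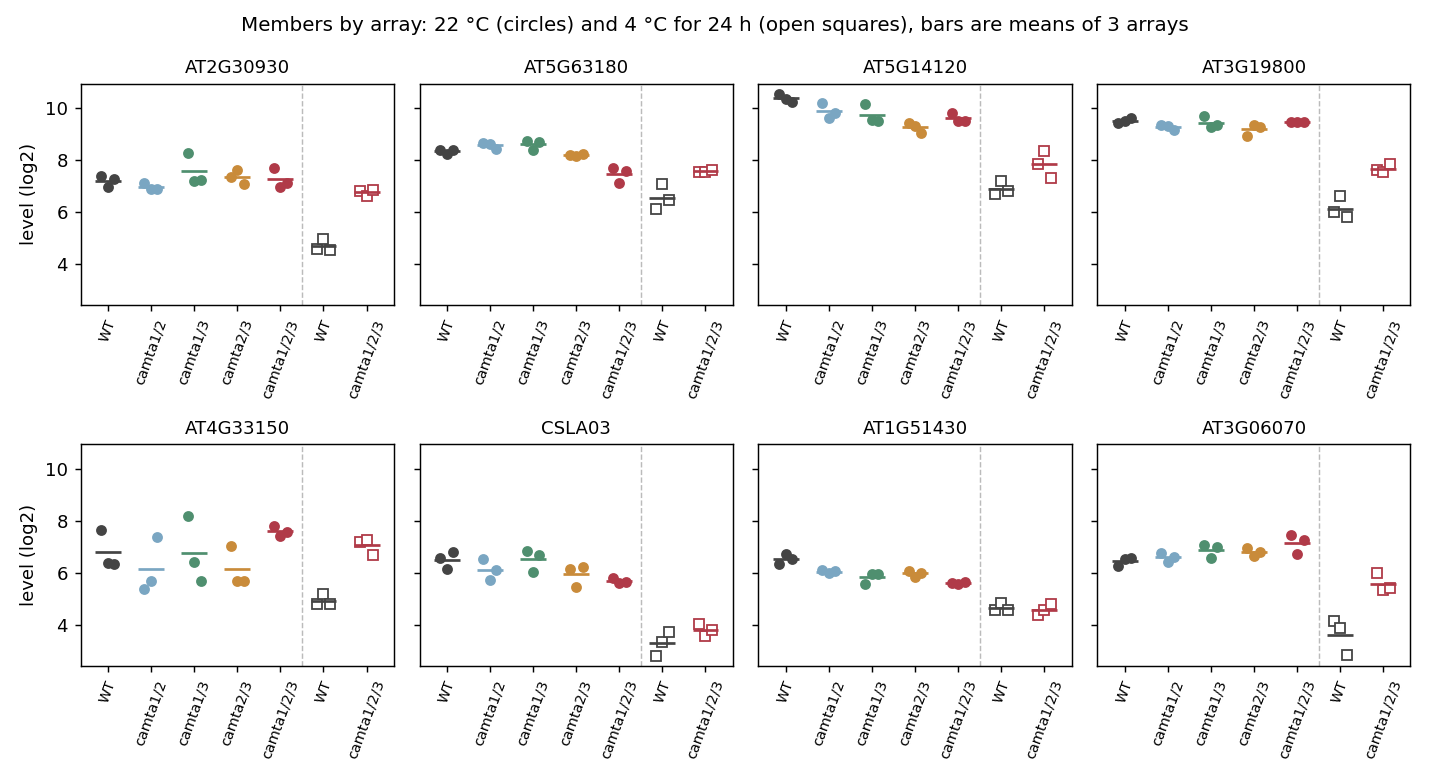
Log2 levels of 8 member genes on each of the 21 arrays by genotype, with circles for 22 °C, open squares for 24 h at 4 °C and bars for the means of 3 arrays. AT2G30930 and AT3G19800 have like warm levels in all genotypes and a higher cold level in camta1/2/3, whereas AT1G51430 has a lower warm level in every mutant and overlapping cold levels; AT4G33150 varies widely within the warm groups.

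The same measure was also read in arrays that had no part in the choice. The rule was applied to 2 replicate numbers of the 4 groups and the response difference was read in the third, which is 1 array for each group. Without replicate 1 the rule chose 90 probe sets, with a median difference of 1.13 in the arrays that chose them and 0.57 in those left out, where 73 of 90 were above 0, as were 89 of 174 other cold-repressed probe sets of that choice. Without replicate 2 it chose 108, with medians of 1.14 and 0.71 and 91 above 0, beside 126 of 195 others. Without replicate 3 it chose 58, with medians of 1.21 and 1.16 and 54 above 0, beside 126 of 162 others. The other cold-repressed probe sets of the same choices had left-out medians of 0.03, 0.20 and 0.48, and all probe sets a median of 0. The left-out medians were smaller than those in the arrays that chose the members, least so for replicate 3. In the left-out arrays a difference of at least 0.8 was met again by 32 of the 90, 48 of the 108 and 38 of the 58. Probe sets read on the same arrays are not independent, and with 1 array a group no test was made. Of the original 77, the 3 choices held 58, 63 and 47.

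Whether the loss of pairs of CAMTA genes moved the warm level of these genes was asked with the double mutants, whose arrays the rule did not use. The comparisons with WT share the WT arrays at 22 °C with the rule, which favours members read high in warm WT, and they share them with each other. In camta1/2, limma called 0 of 77 members (0.163% of all probe sets), 9 or 11.7% had an unadjusted p under 0.05 (7.89% of all), and the median difference from WT was −0.16. In camta1/3, 1 member was lower and 0 were higher (0.541% and 1.67% of all), and the median was −0.03. In camta2/3, 13 members were lower and 0 higher (5.51% and 4.61% of all), with a median of −0.32. The medians over all probe sets were 0.00 in each comparison.

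The share of members called lower in camta2/3, 16.9%, stands beside 7.95% of the 176 other cold-repressed probe sets, of which 14 were lower and 1 higher; the difference between the sets was not tested. With quantile normalization, 14 members were lower and 2 higher in camta2/3, and with array weights 23 and 2. The count depended on single arrays, with 6 without WT replicate 2, 7 without WT replicate 3, 6 without camta2/3 replicate 2 and 8 without camta2/3 replicate 3. It was 5 on the 6 arrays of both groups alone. The second actin pair was also higher by mean in camta2/3, at 2.62 ± 0.16 against 2.23 ± 0.21 in WT (SD, n = 3 each). With it as a covariate 11 were called, 9 of them among the 13. The first actin pair stood at 7.52 ± 0.05 in camta2/3 against 7.21 ± 0.31 in WT. With this pair as a covariate 8 were called, 7 of them among the 13.

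Of the 13 members lower in camta2/3, 5 were named genes. AT5G14120 read 9.42, 9.33 and 9.04 in camta2/3 against 10.56, 10.35 and 10.23 in WT, lower by 1.12 ± 0.25 on the log2 scale (SE, limma, adjusted p = 0.00837), with no overlap. In camta1/2 it read 10.20, 9.62 and 9.81 and in camta1/3 10.17, 9.53 and 9.50, between WT and camta2/3 by mean and without a call. AT1G67750 read 6.39, 6.26 and 6.65 against 6.81, 7.33 and 7.37 in WT (difference −0.74 ± 0.21, limma adjusted p = 0.0362). Without 1 array its adjusted p reached 0.144, and it lost its call in 4 of 6 such fits. AT1G15410 read 4.77, 5.24 and 5.33 against 5.57, 5.65 and 6.32 (−0.73 ± 0.21, limma adjusted p = 0.0361), and lost its call in 3 of 6, the highest adjusted p being 0.176.

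AT1G51430 was the 1 member called in both camta1/3 and camta2/3. It read 5.58, 5.95 and 5.95 in camta1/3, lower than WT by 0.71 ± 0.12 on the log2 scale (SE, limma, adjusted p = 0.00752), and 6.07, 5.86 and 6.01 in camta2/3, lower by 0.55 ± 0.12 (adjusted p = 0.00903). In camta1/2 it read 6.10, 5.99 and 6.07, which also lay below all WT arrays but was not called (difference −0.48, limma adjusted p = 0.148). The gene was thus below WT in every array of every mutant at 22 °C, and kept each call in all 6 fits without 1 array. On the 6 arrays of camta1/3 and WT alone it was not called. The fifth named gene, AT5G52190, of a sugar isomerase-domain family, read 5.97, 6.12 and 5.76 against 6.30, 6.56 and 6.70; it was not called in 4 of the 6 fits that omit an array, where limma adjusted p reached 0.143, and is named to complete the count.

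The same division was read in camta2/3, without a test of the difference between its sides. Of the 28 with the larger part at 22 °C, 28 had a mean below WT in camta2/3 and 11 were called lower, with a median of −0.59. Of the 49 with the larger part at 4 °C, 28 or 57.1% had a mean below WT and 2 were called, with a median of −0.13. By mean, 51.5% of all probe sets and 73.9% of the other cold-repressed ones were below WT. In camta1/2 and camta1/3 the medians of the 28 were −0.24 and −0.26, and those of the 49 were −0.10 and 0.08. By array, the median member of the 28 stood below the WT mean by 0.55, 0.64 and 0.59 in camta2/3 and by 0.69, 0.89 and 0.72 in camta1/2/3. It stood below by 0.11, 0.36 and 0.14 in camta1/2 and by 0.07, 0.36 and 0.23 in camta1/3. Each array of camta2/3 was thus lower than any array of camta1/2 or camta1/3, and higher than any of the triple mutant. Since these 28 were chosen as low in camta1/2/3 against the same WT arrays, part of each difference from WT is fixed by the choice.

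**Figure D4:**
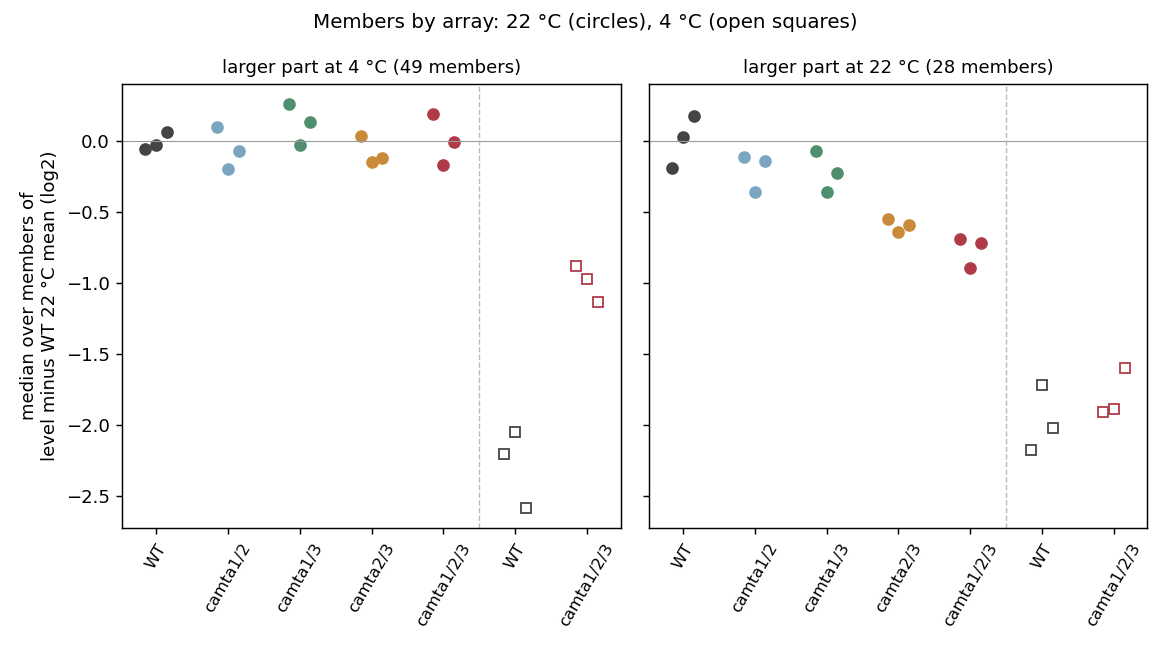
For each array (circles at 22 °C, open squares at 4 °C) the median over members of the log2 level minus the WT mean at 22 °C, for the 49 members with the larger part at 4 °C (left) and the 28 with the larger part at 22 °C (right). On the left the mutants lie near 0 in the warm and camta1/2/3 is well above WT in the cold; on the right camta2/3 lies between the other double mutants and camta1/2/3 in the warm.

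The double mutants were compared with each other without any array that the rule used. At an adjusted p under 0.05, limma called 0 of 77 members between camta1/3 and camta1/2 (0.00879% of all probe sets were called), 0 between camta2/3 and camta1/2 (1.42%) and 0 between camta1/3 and camta2/3 (0.106%). At an unadjusted p under 0.05 there were 5, 13 and 8 members, or 6.49%, 16.9% and 10.4%. The shares of all probe sets were 4.01%, 11.6% and 7.67%, and those of the other cold-repressed ones 2.27%, 12.5% and 11.9%. Replicate numbers paired camta1/3 with camta2/3, and with the number as a block 2 members were called, both higher in camta1/3.

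By mean, 66 of 77 members were higher in camta1/3 than in camta2/3, or 85.7%, against 48.7% of all probe sets and 79.5% of the other cold-repressed ones. Between camta2/3 and camta1/2, 51 of 77 were lower in camta2/3, or 66.2%, against 48.7% of all and 62.5% of the other cold-repressed probe sets. The lower warm level in camta2/3 was thus seen by mean in much of the cold-repressed set and cannot be called particular to the members. Within the members, 27 of the 28 with the larger part at 22 °C were lower by mean in camta2/3 than in camta1/2, with a median of −0.37. At an unadjusted p under 0.05, 8 of the 28 were lower, or 28.6%. The shares were 6.06% of all probe sets and 10.2% of the other cold-repressed ones. Of the 49 with the larger part at 4 °C, 24 were lower by mean (median 0.01, 2 lower at an unadjusted p under 0.05). The 28 were chosen as low in warm camta1/2/3, and the other cold-repressed probe sets were not divided that way. The lower level thus cannot be called particular to the 28. Members share arrays and are not independent of each other, so no test was made of these shares.

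**Figure D5:**
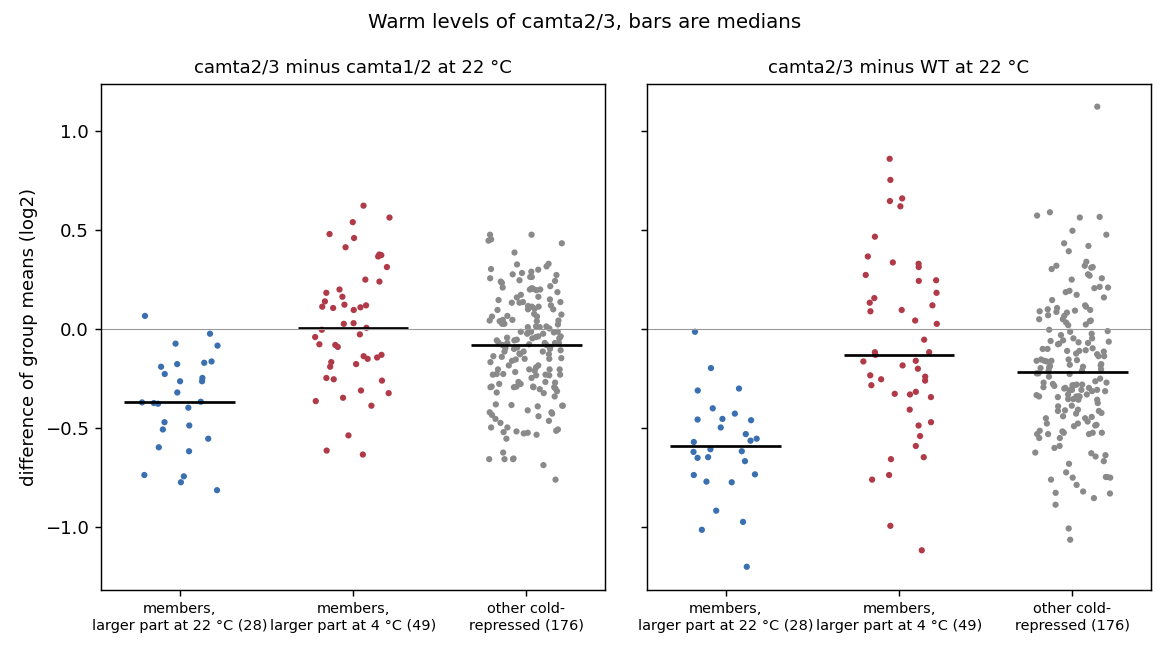
Log2 differences of group means at 22 °C for camta2/3 minus camta1/2 (left) and camta2/3 minus WT (right), 1 point for each probe set and bars for medians, in the 28 and 49 members and the 176 other cold-repressed probe sets. On the left, which uses no array of the rule, the median is −0.37 in the 28 and 0.01 in the 49. The 176 are not divided by their level in warm camta1/2/3.

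AT3G23550 had the largest positive difference from WT of any member in each double mutant. In camta1/3 it stood at 6.75, 6.87 and 6.99 against 5.03, 4.41 and 5.98 in WT, a difference of 1.73 that was not called (limma adjusted p = 0.188). It was chosen for mention after its values were seen. The camta1/3 arrays lay above all of WT, and camta1/2 and camta2/3 stood at 5.66 to 6.14.

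The 36 named genes lay on all 5 chromosomes, with 10, 4, 11, 6 and 5 genes on chromosomes 1 to 5, where 25.7%, 16.3%, 20.5%, 14.6% and 22.4% of the named genes of the array lie. On the RefSeq annotation 0 pairs of them lay within 10 protein-coding genes of each other. Their median gene length was 1643.5 bases, against 2276 for 86 named genes of the other cold-repressed set and 2105 for all 13286 named genes.

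Several members were close to the thresholds. AT1G15410 was inside with a WT response of −1.51 and SFP1 and AT1G17860 were outside, both with −1.49. The smallest response differences inside were 0.80 and 0.81, in probe sets without a named gene, and GSTU18 was outside with 0.79. AT5G13090 was inside with a warm difference of −0.96, and the nearest outside were at −1.01 and −1.02. AT3G52360 was inside with a WT level of 5.03, and AT4G16260 was outside with 4.61. A further 122 probe sets met every part of the rule but the warm range, 105 of them lower by 1 or more in the warm mutant and 17 higher. The members are thus the part of a larger set whose warm level lay within 1 of that of WT. That range is wide, with 31 members lower by at least 0.5 in the warm mutant and 15 within 0.25 of WT.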

How the data were processed

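The deposited table held log2 values per probe set, background-corrected and normalized with GCRMA, per the submitters' processing notes, which also name limma; the sources used here give no versions. Labels state RNeasy extraction and MessageAmp amplification with biotin. Values were used as deposited, and columns were matched to samples by name. Of 22810 probe sets, 64 controls were left out. A table of platform genes named 1 gene for 13513 probe sets, several for 503 and none for 8730, and 13436 were matched to RefSeq (TAIR10.1). Sequences were not used here, so no promoter motifs were searched.

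Group means (7) over the 21 arrays were estimated in 1 limma 3.58.1 model (R 4.3.3, lmFit and eBayes, 14 residual and 0.954 prior degrees of freedom), two-sided, with Benjamini-Hochberg adjustment over 22746 probe sets and calls at 0.05. The fit was tested on simulated data. Precision is limited by 3 arrays per group, and no 2 arrays held the same values at every probe set. Members, gene lists and tests were chosen with earlier results of these data known. Named genes were the 12 named members with the largest response difference, the 3 with the largest WT fall, called members with the largest changes in double mutants and those next to a threshold; others are given for their family or group and were picked after their values were seen. Same-numbered arrays deviated together (correlations of 0.123 or more, and 0.11 or more) in camta2/3 with WT and with camta1/3, and not in every pair of the other comparisons. The alternatives were quantile normalization, median centring, a filter at a mean of 4, trended and robust variances, array weights, a replicate block, actin as a covariate, an adjusted p under 0.01, only the arrays compared, and leaving out arrays. The second actin pair was added after the data were seen, since the 5′ probe set of the first lies near the floor.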

Additional observations from a re-analysis of the deposited data

How the results depend on the processing

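The rule chose 63 probe sets after quantile normalization (61 shared with the 77), 70 with each array centred on its median (70 shared), 46 with a response difference of at least 1, and 56 to 108 without 1 array or 1 replicate number; it chose the same 77 with a replicate block. Of members called, the counts for WT cold (70 to 76) and camta1/2/3 cold (39 to 55) stayed within 1.5 times under all alternatives. The interaction had 5 at an adjusted p under 0.01, 7 on the arrays of the groups compared and 14 to 32 without 1 array. For camta1/2 against WT 0 were called under every setting and 0 to 1 without 1 array, the 1 being without WT replicate 1. For camta1/3 against WT, 2 were called with quantile normalization, 3 with the filter on the mean, 5 with array weights, 2 with the replicate block, 4 with the second actin pair, 0 on the arrays compared and 1 to 4 without 1 array (4 without WT replicate 1). For camta2/3 against WT, 25 were called with array weights, 8 with the first actin pair, 5 at an adjusted p under 0.01, 5 on the arrays compared and 6 to 15 without 1 array. For camta2/3 against camta1/2, 1 was called with the filter, 4 with array weights, 2 with the replicate block and 1 with the second actin pair. For camta1/3 against camta2/3, 1 was called with the filter, 1 with array weights, 2 with the replicate block and 0 to 1 without 1 array (1 without camta2/3 replicate 1). The replicate block changed no other count by over 1.5 times. The response difference of 35 of the 36 named members kept its sign under both scalings, the block and each array left out, and that of AT3G23550 ran from −0.15 without camta1/2/3 replicate 2 at 4 °C to 1.575 without replicate 3. The cause of these shifts was not tested; fits on fewer arrays have fewer degrees of freedom. Signal limits 12 members whose WT cold mean was under 4, near the low end of the scale, where falls can be understated.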
